A study of Mus musculus with 36 samples.

Results

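MHC class II molecules carry peptides from ingested proteins to the cell surface, where CD4+ T cells read them. The 8 genes described here were taken by symbol from the deposited expression table of mouse tibia: *H2-Aa*, *H2-Ab1*, *H2-Eb1*, *Cd74*, *H2-DMa*, *H2-DMb1*, *H2-DMb2* and *Ciita*. They are 8 of 56246 genes in the table, each symbol occurs there once, and all 8 were among the 16123 tested genes, those whose mean reached 0.5 TPM. In saline-treated *LMNA* G/G bone, a model of Hutchinson-Gilford progeria, every one of the 8 was lower than in wild-type bone, to between 0.297 and 0.617 times the wild-type mean. All 8 passed the test there, where 24.9% of genes tested were called lower. They were also lower in *LMNA* G/G bone treated with a base editor, where 35.5% of genes were. Between edited and saline-treated bone 1 of the 8, *H2-DMa*, was called lower, where 25.1% of genes were. It was not called in females or males alone, where 14% and 10.5% of genes were called lower. Nor was it called with the mean of macrophage or skeletal muscle markers as a covariate, where 0.0496% and 3.03% of genes were.

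RNA from the tibia of 36 mice was sequenced in bulk, 12 mice in each of 3 groups, with 6 males and 6 females per group, all at 6 months of age. Wild-type mice (*Lmna* +/+) were not treated, and *LMNA* G/G mice of the C57BL/6J line carry 2 copies of a human genomic transgene with mutant *LMNA*, which also holds a functional *RAB25* gene. *LMNA* G/G mice received saline or ABE by retro-orbital injection 14 days after birth. The editor, an adenine base editor meant to rewrite the mutant base of the transgene, was carried by a pair of AAV9 vectors, each with a piece of the enzyme. Epiphyses and marrow had been removed, so that mostly cortical bone was left. The mouse numbers form 2 series, 1 of which holds the wild-type animals alone, and genotype and a possible batch of each numbering series cannot be told apart.

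The class II molecule is a pair of an alpha and a beta chain. It is built in the endoplasmic reticulum with the invariant chain, encoded by *Cd74*, which fills the peptide groove and directs the complex to endosomes, where H2-DM helps to exchange the remaining piece of invariant chain for a peptide. All of these genes are switched on by CIITA, a coactivator that does not bind DNA itself but joins the RFX complex, CREB and NF-Y on the X and Y boxes of their promoters. B cells, dendritic cells and macrophages make class II molecules constitutively, and many other cells do so when interferon gamma induces *Ciita*.

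Of the 8 members, 6 lie in the class II region of the mouse MHC at chr17:34119541-34316674 (GRCm38, GENCODE vM21 coordinates), a stretch of 197134 bases. *H2-DMa* (chr17:34119541-34139101), *H2-DMb2* (chr17:34143307-34151555), *H2-DMb1* (chr17:34153072-34160230), *H2-Ab1* (chr17:34257689-34269419) and *H2-Eb1* (chr17:34305867-34316674) are on the plus strand. *H2-Aa* (chr17:34282744-34287823) is on the minus strand. *Ciita* lies at chr16:10480059-10528418 on the plus strand, and *Cd74* is on another chromosome. All 8 are annotated as protein-coding. *H2-DMa* shares its annotated span with *Brd2*, CR974462.3, CR974462.4 and Gm20493, *H2-Eb1* with Gm20513, *Ciita* with *Dexi* and *Cd74* with *Mir5107*. The library kit keeps strand, and whether the counting used it is not given in the sources used here.

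Promoter sequence from 250 bases before to 50 bases after a gene start was read from RefSeq on GRCm38.p6, where 5 of the 8 members had 6 windows. The X box core was searched as AGNAAC followed, after 20 to 35 bases, by the Y box ATTGG on either strand. It was found in the windows of *H2-DMb1* and *H2-Eb1* and in 0.831% of all 32851 promoter windows. The form AGNNAC, which contains the first, was in the same 2 member windows and in 2.89% of all. After the sequences were seen a wider form, NNNAAC, was added, which contains AGNAAC, and this one was in 4 of the 6 member windows and in 8.37% of all. The 4 stretches are printed because the shared regulators of class II genes act on X and Y boxes. They were found by their letters alone, and whether the regulators act at them was not tested. Capitals mark the X core and the Y box, and the sequences are given in the direction of the gene.
H2-Eb1: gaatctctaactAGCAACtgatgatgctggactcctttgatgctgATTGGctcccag
H2-Aa: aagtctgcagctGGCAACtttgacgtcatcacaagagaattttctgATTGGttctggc
H2-DMb1: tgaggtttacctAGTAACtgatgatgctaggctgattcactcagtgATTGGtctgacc
H2-DMb2: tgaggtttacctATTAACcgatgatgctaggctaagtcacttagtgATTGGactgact

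These stretches lie at chr17:34305763-34305819 for *H2-Eb1*, chr17:34287860-34287917 for *H2-Aa*, chr17:34153084-34153141 for *H2-DMb1* and chr17:34145113-34145170 for *H2-DMb2*. The X core begins 92, 82, 95 and 124 bases before the RefSeq start, in that order. Between it and the Y box lie 27 bases in *H2-Eb1* against 28 in the other 3. For *H2-DMb1* and *H2-DMb2* the RefSeq start lies inside the GENCODE span given above, and so do the printed stretches. The stretches of *H2-DMb1* and *H2-DMb2* match at 51 of 58 bases, and those of *H2-DMb1* and *H2-Aa* at 22 of 58. The 2 windows of *H2-DMa*, chr17:34122582-34122881 and chr17:34125268-34125567, hold none of the 3 forms, which says only that these letters are not there. Both lie inside the GENCODE span of *H2-DMa* and neither covers its GENCODE start. Whether either holds the promoter used for class II expression was not tested. *H2-Ab1*, *Cd74* and *Ciita* are named without a window.

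Levels are in scaled TPM. TPM are reads relative to the length of the gene and to the total of its library, and the scaling sets the typical gene of every library to the same level (median ratio method). Libraries had between 48064068 and 116206662 reads on genes. Genes of at most 219 bp took 84.7% to 96.6% of the TPM of a library, which sets the size of all other TPM, so scaled TPM serve to compare libraries and genes and not as shares of RNA. In reads the members were well covered, from a lowest library of 160 reads (*H2-DMb2*, ABE-treated) to 31538 (*Cd74*, wild-type). The ABE-treated library replicate 1 had the lowest scale factor, 0.219, and without it the same numbers of members, 8, 8 and 1, passed the test in the 3 comparisons. The summed level of 8 osteocyte markers, which check the tissue, was between 11.4 and 51.8 scaled TPM in wild-type, between 177 and 503 in saline-treated and between 181 and 356 in ABE-treated libraries, so the groups differed widely in the markers of bone itself.

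Groups were compared with limma on log2(scaled TPM + 0.5), with sex as a covariate and all 36 libraries in 1 fit, and p-values were adjusted over all 16123 genes (Benjamini-Hochberg). Adding 0.5 shrinks the fold change of weakly expressed genes. The comparisons of saline-treated and ABE-treated mice with wild-type share the same 12 wild-type libraries. Among all genes tested, 24.9% were called lower at an adjusted p under 0.05 in saline-treated against wild-type bone, and 8 of 8 members were. In ABE-treated against wild-type bone these were 35.5% of genes and 8 of 8 members. Between ABE-treated and saline-treated bone they were 25.1% of genes and 1 of 8 members. The median log2 fold change of the members was -0.69, -0.88 and -0.18 in the 3 comparisons, beside 0.015, -0.024 and -0.018 over all genes tested.

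**Figure D1:**
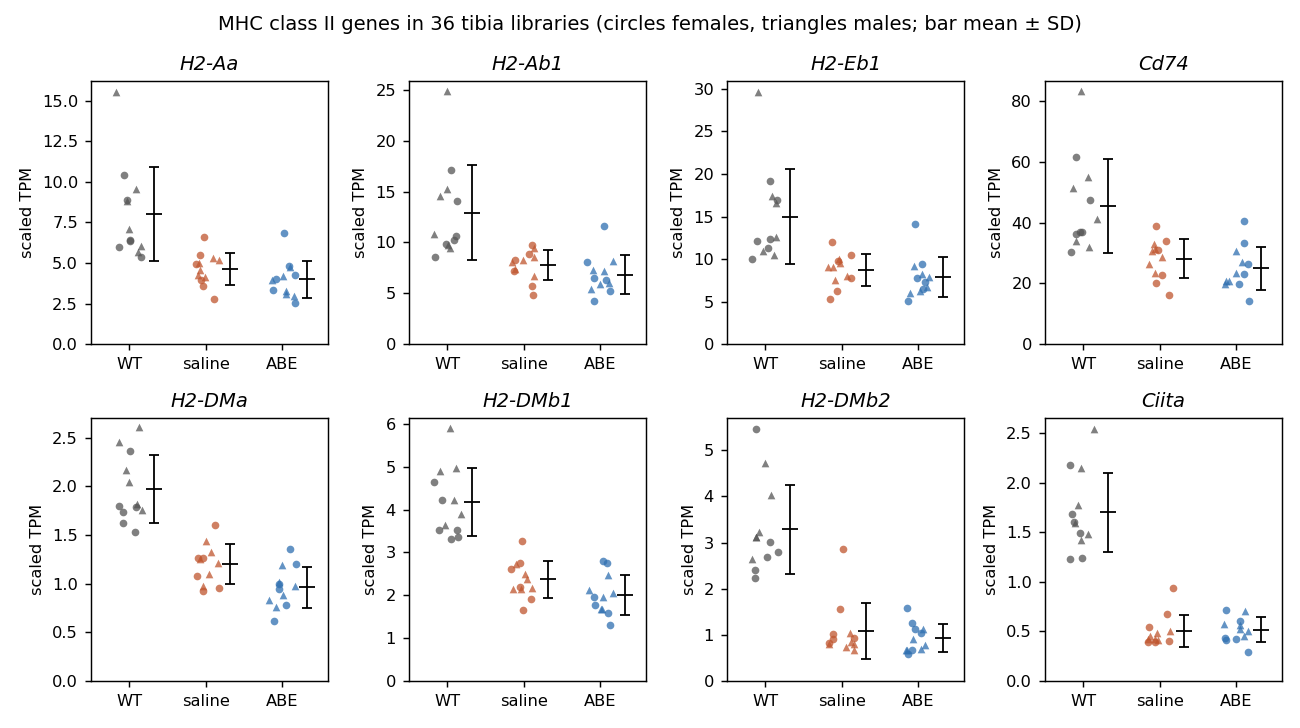
Scaled TPM of the 8 members in each library, by group; circles are females, triangles males, and bars give the mean ± SD of 12 libraries. Wild-type libraries reach the highest level of every gene, and *Ciita* and *H2-DMb1* leave a gap between wild-type and the other groups (lowest wild-type 1.23 and 3.30, highest saline-treated 0.940 and 3.26).

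*H2-Aa* encodes the alpha chain of the molecule H2-A. Its level was 5.34 to 15.5 scaled TPM (median 6.75) in wild-type, 2.80 to 6.58 (median 4.76) in saline-treated and 2.52 to 6.84 (median 3.97) in ABE-treated libraries. All 12 saline-treated and 11 of 12 ABE-treated libraries lay below the wild-type median, while the ranges overlapped. The mean in saline-treated bone was 4.65 ± 0.994 (SD, n = 12) against 8.01 ± 2.90 (SD, n = 12) in wild-type, a change of -0.69 on the log2 scale (SE 0.146, adjusted p = 0.000212, limma). ABE-treated bone, at 3.995 ± 1.15 (SD, n = 12), differed from wild-type by -0.90 (adjusted p = 2.44e-06, limma).

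*H2-Ab1* encodes the beta chain that pairs with H2-Aa. It ranged from 8.58 to 24.8 scaled TPM (median 10.7) in wild-type, from 4.83 to 9.79 (median 8.21) in saline-treated and from 4.27 to 11.6 (median 6.40) in ABE-treated bone. Here 10 of 12 wild-type libraries were above every saline-treated one. The log2 fold change was -0.66 (SE 0.145, adjusted p = 0.000319, limma) in saline-treated and -0.85 (adjusted p = 4.79e-06, limma) in ABE-treated against wild-type bone.

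*H2-Eb1* is the beta chain of the molecule H2-E, whose alpha chain gene is defective in C57BL/6 mice. The table lists that alpha chain gene as *H2-Ea-ps*, with 0 in 29 of 36 libraries. *H2-Eb1* itself was among the more abundant members, at 9.99 to 29.7 scaled TPM (median 12.5) in wild-type, 5.25 to 11.97 (median 9.06) in saline-treated and 5.03 to 14.1 (median 7.502) in ABE-treated bone. The groups overlapped, with 8 wild-type libraries above every saline-treated and 5 above every ABE-treated library. It fell by 0.70 on the log2 scale (SE 0.153, adjusted p = 0.000284, limma) in saline-treated and by 0.86 (adjusted p = 8.69e-06, limma) in ABE-treated bone.

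*Cd74*, the invariant chain, lies at chr18:60803848-60812652 on the plus strand and had the highest level of the 8. Its level was 30.5 to 83.2 scaled TPM (median 39.0) in wild-type, 16.3 to 38.9 (median 29.8) in saline-treated and 14.4 to 40.5 (median 23.3) in ABE-treated libraries. It was lower in 12 of 12 saline-treated libraries than the wild-type median, by -0.66 on the log2 scale (SE 0.159, adjusted p = 0.000858, limma). The change in ABE-treated bone was -0.84 (adjusted p = 2.41e-05, limma).

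These 4 genes kept nearly constant proportions to each other. After the means of the 6 combinations of group and sex were removed, their log2 levels correlated over 36 libraries with Pearson's r of 0.973 to 0.993 among the 6 pairs. The highest library for each of the 4 was the male replicate 10 among wild-type, the female replicate 4 among saline-treated and the female replicate 3 among ABE-treated mice. Without the wild-type one, the change of *H2-Aa* in saline-treated bone was -0.60 (adjusted p = 0.000365, limma). The correlations share library, depth and scaling, and describe these libraries only.

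H2-DM is the exchange factor that loads peptides, made of the alpha chain H2-DMa and a beta chain from *H2-DMb1* or *H2-DMb2*. *H2-DMa* was at 1.53 to 2.61 scaled TPM (median 1.81) in wild-type, 0.925 to 1.6002 (median 1.23) in saline-treated and 0.621 to 1.36 (median 0.962) in ABE-treated bone. Wild-type libraries were above all ABE-treated ones, and 11 of 12 were above all saline-treated ones. The log2 fold changes against wild-type were -0.54 (SE 0.0777, adjusted p = 8.61e-07, limma) and -0.76 (adjusted p = 1.003e-09, limma).

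*H2-DMb1* lay between 3.30 and 5.91 scaled TPM (median 4.05) in wild-type, between 1.67 and 3.26 (median 2.28) in saline-treated and between 1.297 and 2.79 (median 1.95) in ABE-treated bone. Its wild-type libraries did not overlap with either *LMNA* G/G group. The change was -0.70 (SE 0.0964, adjusted p = 3.98e-07, limma) in saline-treated and -0.90 (adjusted p = 2.15e-09, limma) in ABE-treated bone.

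*H2-DMb2* and *Ciita* had the largest changes from wild-type among the 8 members. *H2-DMb2* was at 2.22 to 5.46 scaled TPM (median 3.07) in wild-type, 0.673 to 2.86 (median 0.881) in saline-treated and 0.589 to 1.57 (median 0.841) in ABE-treated bone. The only saline-treated library above 2 scaled TPM was the female replicate 4, at 2.86, inside the wild-type range. The saline-treated mean was 0.329 times and the ABE-treated mean 0.281 times that of wild-type, with log2 fold changes of -1.29 (SE 0.141, adjusted p = 5.63e-09, limma) and -1.40 (adjusted p = 7.31e-10, limma). With limma-voom on recovered reads they were -1.67 and -2.02, the latter where the median of all genes was itself -0.20. *Ciita*, described next, then changed more than *H2-DMb2* in saline-treated bone. The longest protein-coding transcripts of the 2 beta chain genes are 94.6% identical over 1219 aligned bases, and 4.08% of the read-length stretches of *H2-DMb2* also occur in *H2-DMb1*, so a small part of their reads could be assigned to either.

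*Ciita* encodes the coactivator that all the other members depend on in antigen-presenting cells. Its level was 1.23 to 2.54 scaled TPM (median 1.599) in wild-type, 0.394 to 0.940 (median 0.442) in saline-treated and 0.289 to 0.712 (median 0.509) in ABE-treated libraries. All 12 wild-type libraries were above all 24 libraries of *LMNA* G/G bone. The log2 fold change was -1.12 (SE 0.0867, adjusted p = 3.95e-12, limma) in saline-treated and -1.10 (adjusted p = 5.07e-12, limma) in ABE-treated bone, on a scale that adds 0.5 to levels of about that size. With reads recovered from the TPM and limma-voom, where no such constant enters, the changes were -1.77 (adjusted p = 6.17e-10) and -1.90 (adjusted p = 1.21e-10). Counts for a whole gene do not separate the promoters from which *Ciita* is read in different cell types.

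Complete separation from wild-type was seen for *Ciita* and *H2-DMb1* in saline-treated bone, 2 of 8 members where 3.65% of all genes tested were lower without overlap. In ABE-treated bone it was seen for *Ciita*, *H2-DMa*, *H2-DMb1* and *H2-DMb2*, 4 of 8 members against 4.55% of genes. Between ABE-treated and saline-treated bone it was seen for 0 of 8 members and 0.0124% of genes.

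**Figure D2:**
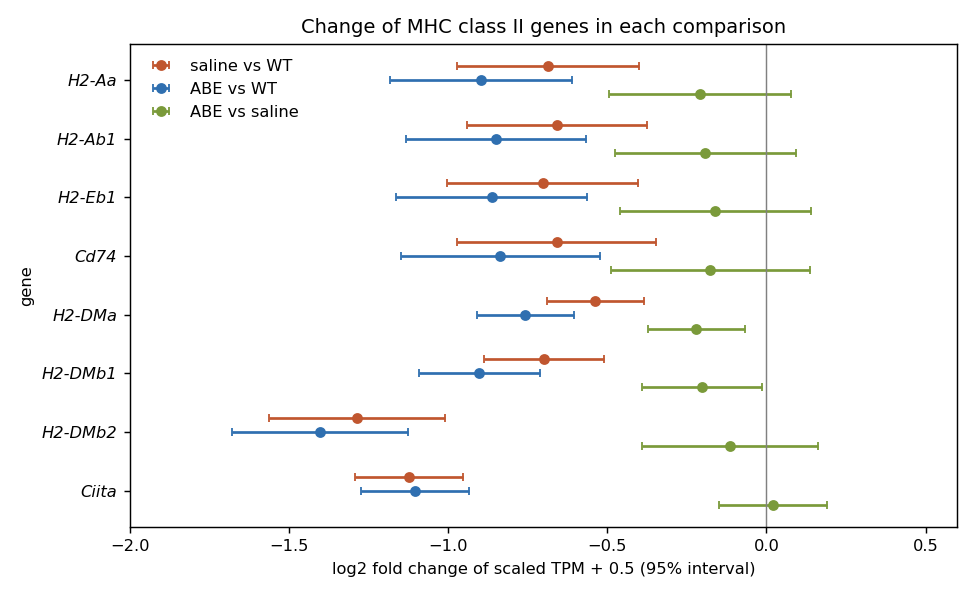
Log2 fold change of each member (x axis, scaled TPM + 0.5) in 3 comparisons, with 95% intervals from the limma fit. Every interval against wild-type lies below 0, and for ABE-treated against saline-treated bone those of *H2-DMa* and *H2-DMb1* do.

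The question of the ABE-treated group is whether editing moved these genes back toward wild-type. In ABE-treated against saline-treated bone the log2 fold changes of the 8 members lay between -0.22 and 0.020, and 7 of the 8 were negative, away from wild-type. *H2-DMa* was the member called, lower at 0.964 ± 0.211 against 1.20 ± 0.203 scaled TPM (SD, n = 12 each), a change of -0.22 (SE 0.0777, adjusted p = 0.0202, limma). *H2-DMa* was not called in females alone (-0.19, adjusted p = 0.248, limma) or males alone (-0.25, adjusted p = 0.0585, limma). With the mean of skeletal muscle markers as a covariate it differed by -0.079 (adjusted p = 0.473, limma), and with that of macrophage markers by 0.038 (adjusted p = 0.784, limma), in the other direction. Most genes lost their call in these fits too. Called lower were 14% of genes in females, 10.5% in males, 3.03% with the muscle and 0.0496% with the macrophage covariate, beside 25.1% in the main fit. For *H2-DMb1* the change was -0.20 (95% interval -0.39 to -0.015, adjusted p = 0.0798, limma). It passed the threshold when the ABE-treated replicate 2, the ABE-treated replicate 3 or the saline-treated replicate 6 was left out, with changes of -0.24 to -0.25, which made 2 members called. With limma-voom on recovered reads both were called, *H2-DMa* at -0.50 (adjusted p = 0.00590) and *H2-DMb1* at -0.43 (adjusted p = 0.0189), in a fit where the median of all genes was itself -0.17 and 40.4% of genes were called lower. The interval for *Ciita* was -0.15 to 0.19 around 0.020 (adjusted p = 0.870, limma), and that for *H2-DMb2* -0.39 to 0.16 around -0.11 (adjusted p = 0.524, limma). The 4 genes of the H2-A and H2-E chains and the invariant chain had intervals from -0.50 at the lowest bound to 0.14 at the highest. With the macrophage covariate the differences of these 4 were above 0, from 0.24 for *H2-Aa* to 0.37 for *Cd74*, past those bounds, and not called (adjusted p of 0.192 or more, limma). The summed level of the 8 members was 63.7 to 168 scaled TPM (median 78.5) in wild-type, 33.3 to 75.9 (median 57.5) in saline-treated and 29.0 to 79.4 (median 45.9) in ABE-treated libraries.

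The members did not all change by the same factor. On log2(scaled TPM + 0.5), the level of *H2-DMb2* relative to *H2-Aa* in the same library was -1.14 ± 0.341 (SD, n = 12) in wild-type bone, -1.74 ± 0.365 after saline and -1.65 ± 0.146 after ABE. The difference from wild-type was -0.60 in saline-treated (adjusted p = 0.00504) and -0.51 in ABE-treated bone (adjusted p = 0.00304), by a permutation test with 100000 resamples, two-sided and adjusted over 21 ratios of 7 members in 3 comparisons. On TPM as deposited the difference of *H2-DMb2* in ABE-treated bone was -0.40 (adjusted p = 0.0509, permutation test) and was no longer called. *Ciita* relative to *H2-Aa* went from -1.91 ± 0.259 in wild-type to -2.35 ± 0.209 in saline-treated bone (SD, n = 12), a difference of -0.44 (adjusted p = 0.00304, permutation test). In ABE-treated bone the difference of *Ciita* was -0.21 (adjusted p = 0.186, permutation test), and with 0.1 instead of 0.5 added it was -0.58 (adjusted p = 0.000350). Between ABE-treated and saline-treated bone the ratio of *Ciita* differed by 0.23 (adjusted p = 0.110, permutation test), toward wild-type, and it passed with 0.1 added (0.26, adjusted p = 0.04998) and on TPM as deposited (0.41, adjusted p = 0.0307). The level of *Ciita* itself differed by 0.020 between these groups (adjusted p = 0.870, limma). That of *H2-Aa*, the other side of the ratio, differed by -0.21 (adjusted p = 0.242, limma), away from wild-type. *H2-DMb1*, by contrast, differed in its ratio to *H2-Aa* by -0.011 and -0.0053 from wild-type (adjusted p = 0.948 for both, permutation test). The ratios of *H2-Ab1*, *H2-Eb1*, *Cd74* and *H2-DMa* differed by -0.016 to 0.15 from wild-type with adjusted p of 0.273 or more (permutation test). With 0.1 added, *Cd74* (0.12, adjusted p = 0.00781) and *H2-Eb1* (0.066, adjusted p = 0.0265, permutation test) were called in ABE-treated against wild-type bone, and *H2-Ab1* and *H2-DMa* were not. Of the 21 ratios, 3 passed at an adjusted p under 0.05, and 7 did with 0.1 added.

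**Figure D3:**
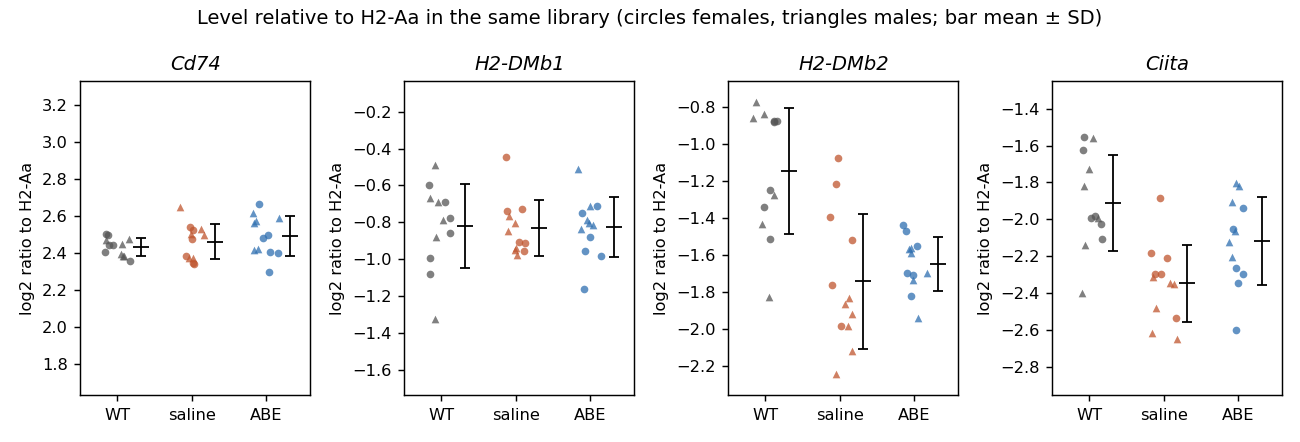
Log2 ratio of 4 members to *H2-Aa* in each library (y axis, equal span in every panel; log2 of scaled TPM + 0.5), by group, with mean ± SD; circles are females and triangles males. *H2-DMb2* and *Ciita* sit lower in saline-treated than in wild-type bone relative to *H2-Aa*, whereas *Cd74* stays within 2.30 to 2.67 in all 36 libraries.

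Within groups the members rose and fell together. Over the 28 pairs, r after removal of the group and sex means was 0.677 to 0.993 (median 0.880, 36 libraries). *Ciita* had r of 0.804 to 0.882 with the others, highest with *H2-DMb2*. *H2-DMb2* was the member least like the rest, with r of 0.702 to the mean of *H2-Aa*, *H2-Ab1*, *H2-Eb1* and *Cd74*, where the median of all genes tested was 0.028. The 10 other genes most like that mean were *H2-K1* (r = 0.886), *Shisa5* (0.866), *H2-M3* (0.862), *Itgax* (0.848), *Gimap4* (0.848), *H2-D1* (0.845), *Cd83* (0.841), *Il2rg* (0.837), *Psmb10* (0.832) and *B2m* (0.828). *H2-K1*, *H2-D1*, *B2m* and *Psmb10* belong to class I presentation, *Itgax* marks dendritic cells and *Cd83* stabilizes class II molecules at the surface. Their likeness within groups did not fix their change between groups: *B2m*, the light chain of class I, was 0.55 higher on the log2 scale in saline-treated bone (adjusted p = 0.000726, limma), and *Psmb10* differed by 0.0028 (adjusted p = 0.978, limma).

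No member was called between females and males averaged over groups (0 of 8, 0 at an unadjusted p under 0.05, limma; limma-voom also called 0), where 0.552% of genes were. The differences between the sexes in the change from wild-type were positive for all 8 members, a smaller estimated fall in females. All 8 rise and fall together within groups, so the shared sign is not 8 separate results. The differences were 0.063 to 0.59 in saline-treated and 0.051 to 0.40 in ABE-treated bone. None passed the interaction test (0 of 8 in each, limma, beside 1.05% and 3.65% of genes), and neither did any for ABE-treated against saline-treated bone (0 of 8, 0 at an unadjusted p under 0.05, beside 0.0558% of genes). At an unadjusted p under 0.05 there was 1 member, *H2-DMb2* in saline-treated bone, with a difference of 0.59 (adjusted p = 0.194, limma). In a fit of the females alone, *Ciita*, *H2-DMa*, *H2-DMb1* and *H2-DMb2* were called lower in saline-treated bone, 4 of 8 members where 10.3% of genes were, and *Cd74* differed by -0.63 (adjusted p = 0.0930, limma). In females within the fit of both sexes, with the same fold changes, 8 of 8 were called (highest adjusted p = 0.0391, limma), where 13.6% of genes were. In the males alone 8 of 8 were called, where 26.2% of genes were.

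Other genes that act on class II molecules followed in part. H2-O, which restrains H2-DM and is made mainly by B cells, is encoded by *H2-Oa* and *H2-Ob*, and both were lower. *H2-Ob* went from 1.73 ± 0.416 in wild-type to 0.446 ± 0.224 in saline-treated and 0.425 ± 0.141 scaled TPM in ABE-treated bone (SD, n = 12), with log2 fold changes of -1.25 (adjusted p = 2.49e-11, limma) and -1.26 (adjusted p = 1.66e-11, limma). *H2-Oa* changed by -0.63 and -0.75 in the same comparisons. Both genes averaged under 0.5 scaled TPM in both *LMNA* G/G groups and reached the limit for testing with the help of their wild-type level. *H2-Eb2* had a mean of 0.232 scaled TPM in wild-type, under the limit for testing.

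The enzymes that prepare peptides and trim the invariant chain did not fall with the members in saline-treated bone. Of 9 genes for peptide loading and turnover, 5 were higher, 1 was lower and 3 were not called there, with a median log2 fold change of 0.12. Over all genes tested 27.5% were called higher in saline-treated against wild-type bone, 34.6% in ABE-treated against wild-type bone and 22.9% between ABE-treated and saline-treated bone. The highest by mean level were the cathepsin *Ctsb* (0.30, adjusted p = 0.00717, limma), the thiol reductase *Ifi30* (0.34, adjusted p = 0.0146), *Ctss*, the cathepsin that removes the invariant chain (-0.074, adjusted p = 0.700), and the legumain gene *Lgmn* (0.37, adjusted p = 0.00381). *March1*, a ligase that takes class II molecules off the surface, was the 1 lower, at -0.25 (adjusted p = 0.0136, limma). Between ABE-treated and saline-treated bone 7 of the 9 were lower and 1 was higher, with a median of -0.34, and *Ctss* was lower by -0.61 (adjusted p = 0.00224, limma). In ABE-treated against wild-type bone 2 were higher and 4 lower.

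Promoter factors that recruit CIITA moved in both directions. Of 7 genes, 2 were higher and 2 lower in saline-treated bone (median 0.018), and the same counts were found in ABE-treated bone (median -0.028), shares near those of all genes in saline-treated bone. *Rfx5*, the DNA-binding subunit of the RFX complex, was lower by -0.28 in saline-treated (adjusted p = 1.80e-07, limma) and by -0.25 in ABE-treated bone (adjusted p = 3.64e-07, limma). The NF-Y subunit gene *Nfya* differed by -0.18 in saline-treated (adjusted p = 0.0642, limma) and was lower by -0.37 in ABE-treated bone (adjusted p = 0.000192, limma). Its partner *Nfyc* was higher by 0.22 and 0.26, and *Creb1* differed by 0.018 and -0.028 with adjusted p of 0.774 and 0.612 (limma).

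Of 9 tested genes by which interferon gamma activates *Ciita*, 1 was higher and 4 were lower in saline-treated bone, and the higher one was *Jak1*. The counts in ABE-treated bone were the same, with *Ifngr2* the higher one. The most abundant were *Jak1* (0.14 in saline-treated bone, adjusted p = 0.00163, limma), *Ifngr1* (0.12, adjusted p = 0.187), *Spi1* (0.30, adjusted p = 0.0846) and *Jak2* (-0.079, adjusted p = 0.200). The lower genes included the transcription factors *Irf8* and *Irf1* and the feedback inhibitor *Socs1*, which are given for their role in the control of *Ciita*. *Irf8*, which dendritic and B cells also need, fell from 5.79 ± 0.817 to 2.50 ± 0.667 in saline-treated and 2.02 ± 0.715 scaled TPM in ABE-treated bone (SD, n = 12), with changes of -1.09 (adjusted p = 2.97e-08, limma) and -1.37 (adjusted p = 2.53e-10, limma). *Irf1* changed by -0.43 and -0.58 and *Socs1* by -0.23 and -0.36, and *Socs1* averaged under 0.5 scaled TPM in both *LMNA* G/G groups. *Ifng* itself had a mean of 0.0217 scaled TPM in wild-type and was listed at 0 in 4 libraries.

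Class I presentation was also compared. In saline-treated bone 1 of 11 genes was higher and 4 were lower (median -0.098), and in ABE-treated bone 8 were lower (median -0.37). The class I chains *H2-D1* and *H2-K1* differed by -0.064 (adjusted p = 0.639, limma) and -0.16 (adjusted p = 0.2502, limma) in saline-treated bone, and the loading factor gene *Tapbp* by -0.098 (adjusted p = 0.214, limma). The 4 lower genes were *Nlrc5*, a relative of *Ciita* that activates class I genes, the peptide transporter genes *Tap1* and *Tap2*, and the proteasome subunit gene *Psmb9*. *Nlrc5* changed by -0.67 in saline-treated (adjusted p = 7.34e-06, limma) and by -0.80 in ABE-treated bone (adjusted p = 1.92e-07, limma). Among 4 tested genes through which class II-bearing cells and T cells meet, 3 were lower in saline-treated and 4 in ABE-treated bone: *Icosl* changed by -0.74 and -0.84 and *Cd40* by -0.61 and -0.57, while the co-receptor *Cd4* differed by -0.12 (adjusted p = 0.480, limma) and was lower by -0.63 in ABE-treated bone. *Cd40* and *Lag3* averaged under 0.5 scaled TPM in both *LMNA* G/G groups and reached the limit for testing with the help of their wild-type level.

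**Figure D4:**
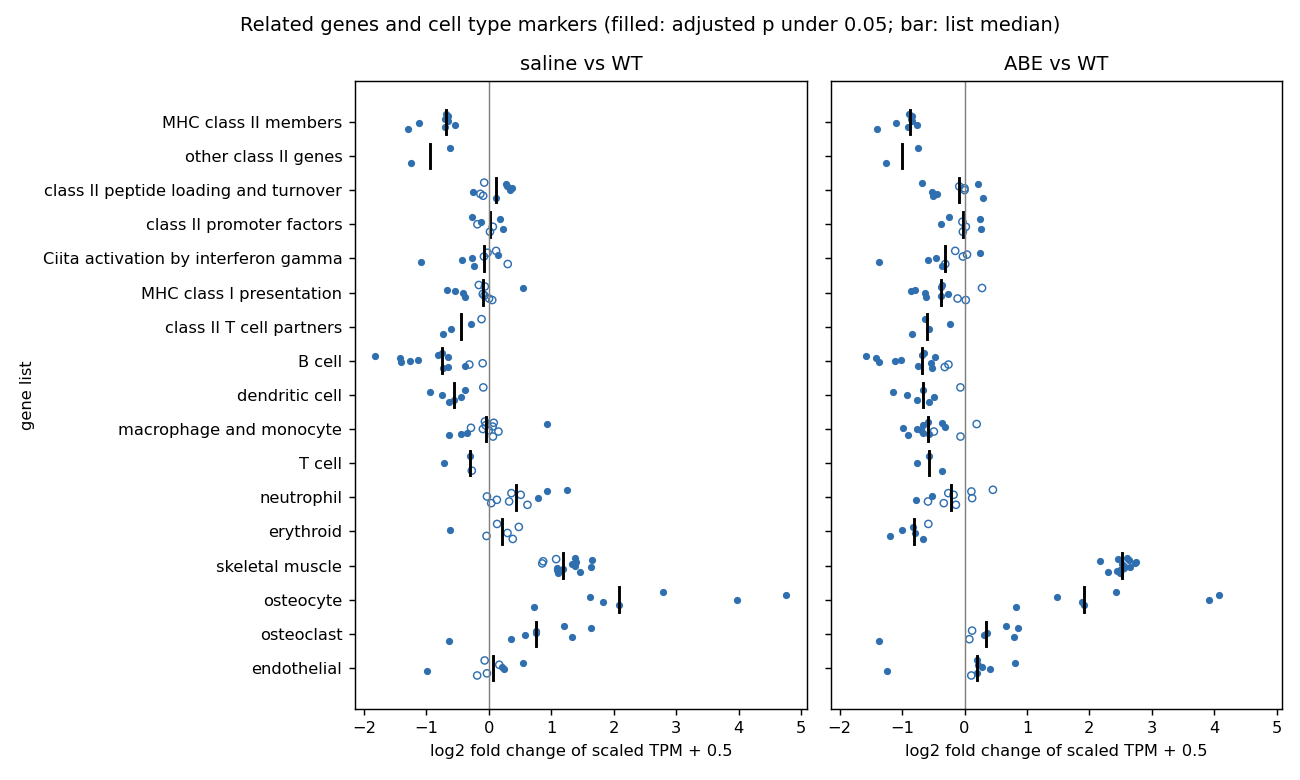
Log2 fold change of each tested gene of 17 lists (rows) against wild-type, for saline-treated (left) and ABE-treated bone (right); filled points passed an adjusted p of 0.05 and black bars are list medians. The class II members have medians of -0.69 and -0.88, and B cell markers (-0.75 and -0.69) and dendritic cell markers (-0.56 and -0.66) also lie below 0, while skeletal muscle (1.18 and 2.52) and osteocyte markers (2.08 and 1.91) lie above it.

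Markers of B cells and dendritic cells were lower in both comparisons with wild-type, as the members were, and most macrophage and monocyte markers were not called in saline-treated bone. In bulk RNA fewer cells of a type and less RNA per cell cannot be told apart. Within groups the order of the lists was another. The median r to the mean of *H2-Aa*, *H2-Ab1*, *H2-Eb1* and *Cd74* was 0.557 for B cell markers (0.246 to 0.709). It was 0.635 for dendritic cell markers (-0.197 to 0.848) and 0.694 for macrophage and monocyte markers (0.260 to 0.816). Of 13 tested B cell markers, 11 were lower and 0 higher in each comparison with wild-type. Among the lower ones, *Fcer2a* averaged under 0.5 scaled TPM in both *LMNA* G/G groups and was tested with the help of its wild-type level. Their summed level was 37.9 to 85.5 scaled TPM in wild-type, 19.1 to 54.2 in saline-treated and 13.8 to 59.7 in ABE-treated libraries, and no marker of the list was at 0 in any library. The receptor chains *Cd79a* and *Cd79b* changed by -0.75 and -0.82 in saline-treated bone (adjusted p = 0.00173 and 0.000622, limma), and the pre-B cell gene *Vpreb3* by -0.31 (adjusted p = 0.206, limma).

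Of 7 tested dendritic cell markers, 6 were lower in both comparisons, and their summed level with the 5 untested ones was 8.17 to 12.2 scaled TPM in wild-type, 3.96 to 7.45 in saline-treated and 2.82 to 7.71 in ABE-treated libraries. *Irf4* (-0.65), *Clec10a* (-0.56) and *Itgax* (-0.37) were lower in saline-treated bone, and *Zbtb46* differed by -0.089 (adjusted p = 0.0716, limma). The other lower ones, *Clec9a*, *Siglech* and *Ccr7*, averaged under 0.5 scaled TPM in both *LMNA* G/G groups. They reached the limit for testing with the help of their wild-type level, which tilts the count toward lower. Of 13 tested macrophage and monocyte markers, 3 were lower, 1 was higher and 9 were not called in saline-treated bone (median -0.051), with sums of 65.2 to 121 in wild-type and 53.6 to 134 in saline-treated libraries. In ABE-treated bone 10 of them were lower than in wild-type (median -0.59) and 9 lower than in saline-treated bone (median -0.52), at sums of 30.2 to 94.8 scaled TPM. *C1qb* and *C1qa*, complement genes of resident macrophages, differed by -0.096 (adjusted p = 0.663, limma) and -0.29 (adjusted p = 0.185, limma) in saline-treated bone and were lower by -0.76 and -0.98 in ABE-treated bone. *Cd68* was higher by 0.93 in saline-treated bone (adjusted p = 5.30e-05, limma), and *Ly6c2* differed by 0.15 (adjusted p = 0.608, limma).

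Lists of other cells moved too. Skeletal muscle markers summed to 243 to 3595 scaled TPM in wild-type, 399 to 9324 in saline-treated and 1296 to 15394 in ABE-treated libraries, and 12 and 15 of 15 were higher than in wild-type. All 7 tested osteocyte markers were higher in both, and of 8 osteoclast markers 7 and 5 were higher. Of 10 neutrophil markers 3 were higher in saline-treated bone and 2 lower in ABE-treated bone, of 6 erythroid markers 1 and 5 were lower, of 8 endothelial markers 3 and 6 were higher, and of 3 tested T cell markers 2 and 3 were lower. The part of the dendritic cell, T cell, osteocyte, osteoclast, neutrophil, erythroid and endothelial lists in the result for the members was not tested.

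The fit was repeated with the mean of a marker list as a covariate. Each list mean itself can differ between groups, so such a fit takes away whatever the members share with the list. In saline-treated against wild-type bone the B cell mean differed by -0.88 on the log2 scale, the macrophage mean by -0.051 and the muscle mean by 1.24. In ABE-treated bone they differed by -0.82, -0.53 and 2.52. A mean that hardly differs between groups can take little from their difference, so the counts below do not compare the lists. With the B cell mean, 2 of 8 members were called lower in saline-treated bone, *Ciita* (-0.74, adjusted p = 2.28e-06, limma) and *H2-DMb2* (-0.66, adjusted p = 0.00247, limma), where 11.9% of genes were. *Cd74* then differed by -0.014 (SE 0.195), *H2-Ab1* by -0.085, *H2-Eb1* by -0.12 and *H2-Aa* by -0.14, with adjusted p of 0.634 or more (limma). In ABE-treated bone 4 of 8 were called, *Ciita* (-0.74), *H2-DMb2* (-0.82), *H2-DMb1* (-0.49) and *H2-DMa* (-0.45), where 15.8% of genes were. With the macrophage mean 8 of 8 were called in saline-treated bone, by -0.51 to -1.26, and in ABE-treated bone all but *Cd74* (-0.23, adjusted p = 0.132, limma), where 25.7% and 24.3% of genes were. With the skeletal muscle mean the counts were again 8 and 7, where 21.2% and 15.4% of genes were. For ABE-treated against saline-treated bone, the macrophage mean turned the differences of 7 members from below to above 0, to 0.038 to 0.37, and 0 of 8 were called (limma), where 0.0496% of genes were. With the muscle mean 0 of 8 were called there too, where 3.03% of genes were.

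**Figure D5:**
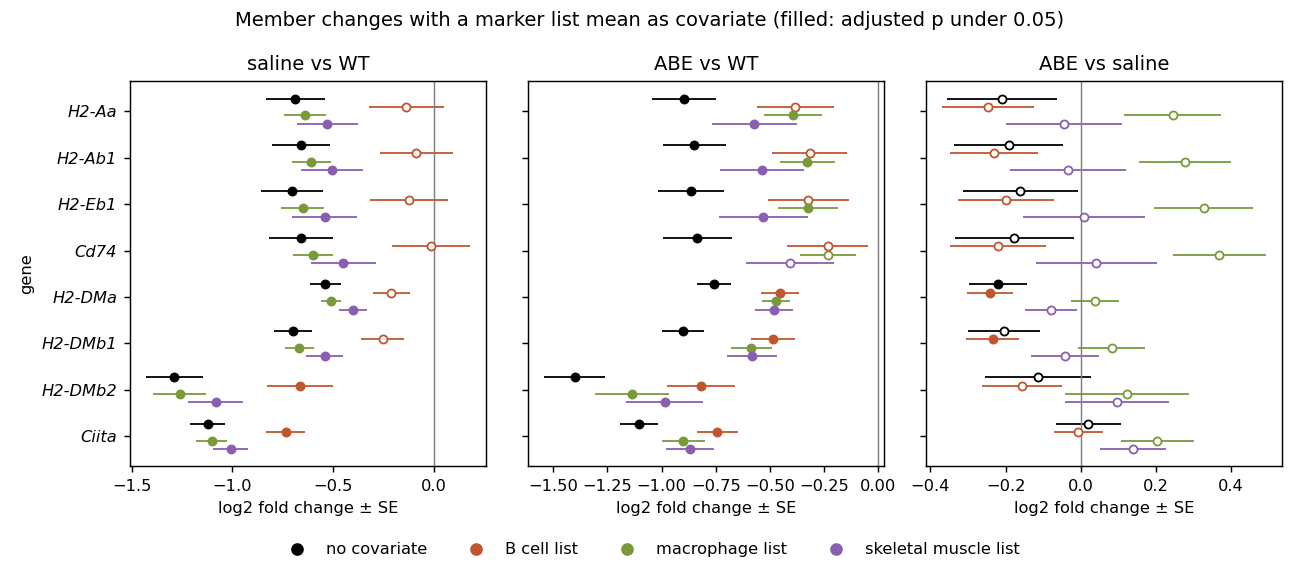
Log2 fold change ± SE of each member in 3 comparisons, without a covariate (black) and with the mean of the B cell, macrophage or skeletal muscle list as covariate; filled points passed an adjusted p of 0.05. In saline-treated against wild-type bone the B cell mean brings *H2-Aa*, *H2-Ab1*, *H2-Eb1* and *Cd74* to between -0.14 and -0.014, and *Ciita* and *H2-DMb2* stay at -0.74 and -0.66.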

How the data were processed

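Expression was measured in 36 mouse tibia libraries (TruSeq stranded mRNA). Per the labels and the study's methods, the authors aligned reads with STAR to GRCm38, counted them with QoRTs on GENCODE M24 and deposited a table of TPM per gene. How TPM were computed and whether counting used strand are not given in the sources used here. The deposited TPM equal whole reads divided by gene length minus 218 bp, times a constant per library. Within a tolerance of 0.05, 100% of values gave whole reads, and these recovered reads gave the depths and the limma-voom alternatives. Each library was scaled by its median ratio, 0.5 was added, and genes whose mean reached 0.5 TPM were fitted in limma 3.58.1 (R 4.3.3) on group and sex. Adjustment was by Benjamini-Hochberg at 0.05. Ratios between members were compared by permutation with 100000 resamples (Python 3.11.15, scipy 1.17.1, numpy 2.4.6, pandas 2.3.3). Sequences were aligned with biopython 1.88 and figures drawn with matplotlib 3.10.9. Coordinates are from GENCODE vM21 and promoters from RefSeq. The fit was tested on simulated data. The 8 members and all lists were chosen with earlier results of these data known. From each list at most 4 genes of the highest mean were named, plus genes whose role the text needs, and the 10 genes most like the mean of *H2-Aa*, *H2-Ab1*, *H2-Eb1* and *Cd74*. Alternatives changed the pseudocount, filter, scaling, test, sex and marker covariate, and left out each library. Values of some list genes are not reported here.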

Additional observations from a re-analysis of the deposited data

How the results depend on the processing

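No paired analysis was possible because replicate numbers were given in accession order only and the labels tie no mice of different groups together. Leaving out each library in turn kept 8 members called in both comparisons with wild-type and gave 1 to 2 in ABE-treated against saline-treated bone, while the genes called ranged over 7864 to 8995, 11091 to 11525 and 6759 to 8526. For saline-treated against wild-type bone 8447 genes were called, beside 13170 without a filter, 2111 with a filter of 5 TPM, 4742 on TPM as deposited, 3410 by limma-voom with the study's filter, 3344 in females and 4535 with the B cell covariate. The members called were then 4 of 4 tested at 5 TPM, 5 of 5 by that limma-voom, 4 in females and 2 with the B cell covariate. Beside 11298 genes in ABE-treated against wild-type bone, there were 19138 without a filter, 2695 at 5 TPM, 5272 by limma-voom, 5479 with the B cell and 5399 with the muscle covariate, and 4, 5 and 4 members at 5 TPM, by limma-voom and with the B cell covariate. Beside 7738 genes in ABE-treated against saline-treated bone, there were 1834 at 5 TPM, 4592 by limma-voom, 4744 in females, 3238 in males, 22 with the macrophage and 1440 with the muscle covariate. The member called there, *H2-DMa*, was not tested at 5 TPM or by limma-voom with the study's filter, where 0 of 4 and 0 of 5 members were called. The count was 0 in females, in males and with the macrophage or muscle covariate, 3 on deposited TPM, 2 with the B cell covariate and 2 by limma-voom on all 16123 genes, an alternative chosen after seeing the data. Between females and males, 4 members were called on deposited TPM. Ratios to *H2-Aa* called rose from 3 to 7 with a pseudocount of 0.1. Limma-voom on all tested genes shifts the median of all genes by -0.20 in ABE-treated against wild-type and -0.17 in ABE-treated against saline-treated bone.

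Reversals among the members were all in ABE-treated against saline-treated bone. With the macrophage covariate the differences were 0.24 for *H2-Aa*, 0.28 for *H2-Ab1*, 0.33 for *H2-Eb1*, 0.37 for *Cd74*, 0.038 for *H2-DMa*, 0.082 for *H2-DMb1* and 0.12 for *H2-DMb2*. With the muscle covariate they were 0.0084 for *H2-Eb1*, 0.041 for *Cd74* and 0.097 for *H2-DMb2*. *Ciita* was at -0.11 on deposited TPM, -0.14 and -0.13 by limma-voom with the study's filter and on all tested genes, -0.10 in females, -0.0065 with the B cell covariate and -0.0074 to 0.072 with 1 library left out. Small ratios to *H2-Aa* also changed sign. On deposited TPM these were -0.0090 for *H2-Ab1*, -0.029 for *Cd74* and 0.097 for *H2-DMa* in ABE-treated against saline-treated bone, and -0.0040 for *H2-Eb1*, -0.0087 for *Cd74* and 0.046 for *H2-DMb1* in ABE-treated against wild-type bone. With a pseudocount of 0.1 they were 0.0045 for *H2-Eb1* in saline-treated and -0.0083 for *H2-DMa* in ABE-treated against wild-type bone, and -0.012 for *H2-DMb1* in ABE-treated against saline-treated bone. The cause was not tested. Deposited TPM shift the median of all genes by -0.13, -0.42 and -0.27 on the log2 scale in the 3 comparisons.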
